A study of Mus musculus with 14 samples.

Results

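The genes described are 10 of the 36118 genes in the deposited count table, chosen by symbol: the heat shock genes Hspa1a, Hspa1b, Hspb1, Dnajb1, Hsph1 and Hsp90aa1, the cold-inducible genes Cirbp and Rbm3, and the splicing kinase genes Clk1 and Clk4. Their RNA was measured in the hippocampus of 14 mice at postnatal day 15, with 1 polyA library per mouse. WT-RA (4 mice) and KO-RA (3 mice) were wild-type and GSDMD-KO mice kept in room air, and WT-O2 (4 mice) and KO-O2 (3 mice) were kept in hyperoxia of 85% O2 from postnatal day 1 to 14. The labels give the strain of all mice as C57/BL6, and the methods give the GSDMD-KO line as C57BL/6N. The KO mice were homozygous for a CRISPR/Cas9 deletion in the fifth exon of Gsdmd that all cells carry, and WT littermates came from the same matings of heterozygotes. The question was whether these genes differed between hyperoxia and room air in each genotype, and between genotypes in each exposure.

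Heat shock genes encode chaperones that hold or refold unfolded proteins, and heat shock factor 1 switches many of them on when protein damage or temperature rises. Cirbp and Rbm3 encode small RNA-binding proteins whose RNA rises when cells are cooled mildly. Clk1 and Clk4 encode kinases that phosphorylate SR proteins, the splicing factors that choose exons, and a large part of their own RNA keeps introns in the nucleus and is spliced in response to stress and temperature.

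Upstream sequence in the RefSeq promoter table of build GRCm38.p6 was present for 7 of the 10 genes. The 250 bases before the first listed transcription start are shown for Hspa1a, Hspa1b, Cirbp and Clk4, which were each called in a comparison. Capitals mark 3 motifs that were searched on both strands. The first is a 2-unit heat shock element, GAANNTTC or TTCNNGAA, the kind of site that heat shock factor 1 binds, which 12.84% of 32851 such windows of all genes held. The next is TCCCCGCC or its reverse complement GGCGGGGA, an octamer described in the Cirbp promoter (4.64% of windows). The last is the cyclic AMP response element TGACGTCA (1.55% of windows).
Hspa1a, chr17:34972157-34972406, minus strand: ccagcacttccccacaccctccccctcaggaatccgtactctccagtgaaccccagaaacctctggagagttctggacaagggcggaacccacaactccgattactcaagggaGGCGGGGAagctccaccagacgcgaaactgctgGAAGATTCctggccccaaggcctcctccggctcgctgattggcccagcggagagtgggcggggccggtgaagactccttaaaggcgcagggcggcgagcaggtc
Hspa1b, chr17:34959239-34959488, minus strand: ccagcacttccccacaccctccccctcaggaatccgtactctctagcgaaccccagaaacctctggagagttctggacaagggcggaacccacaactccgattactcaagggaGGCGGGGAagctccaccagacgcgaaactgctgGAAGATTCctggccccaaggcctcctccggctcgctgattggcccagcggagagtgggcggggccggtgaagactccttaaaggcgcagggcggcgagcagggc
Cirbp, chr10:80167589-80167838, plus strand: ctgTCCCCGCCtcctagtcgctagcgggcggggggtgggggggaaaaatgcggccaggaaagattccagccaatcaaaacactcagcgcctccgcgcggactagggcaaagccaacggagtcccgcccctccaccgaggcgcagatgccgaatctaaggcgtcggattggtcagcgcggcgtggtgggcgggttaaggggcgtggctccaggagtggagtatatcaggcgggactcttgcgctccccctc
Clk4, chr11:51262864-51263113, plus strand: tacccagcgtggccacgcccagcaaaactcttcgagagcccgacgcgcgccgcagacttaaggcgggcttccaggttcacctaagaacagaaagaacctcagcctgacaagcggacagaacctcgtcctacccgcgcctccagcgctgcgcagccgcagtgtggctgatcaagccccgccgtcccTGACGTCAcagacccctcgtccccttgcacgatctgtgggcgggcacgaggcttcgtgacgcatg
The Hspa1a and Hspa1b windows held the same heat shock element, GAAGATTC, 104 bases before the start, and the same GGCGGGGA 137 bases before it. The Cirbp window held TCCCCGCC 247 bases before the start, and the Clk4 window held TGACGTCA 65 bases before the start. Hspb1 had 2 heat shock elements (GAAGTTTC and GAACCTTC) and Hsph1 had 1 (TTCTCGAA), while the letters searched were not in the Dnajb1 windows. A match describes letters only and says nothing of binding in these mice.

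The upstream windows of Hspa1a and Hspa1b, neighbours on chromosome 17, were identical at 247 of 250 bases (98.8%). Counted from 1 at the 5′ end of the window, the substitutions from Hspa1a to Hspa1b were C44T, T47C and T249G. Their transcripts were also nearly shared. Of the distinct 31-base words in the Hspa1a transcript, 63.8% also occurred in Hspa1b, and of those in Hspa1b 67.7% occurred in Hspa1a. The split of estimated counts between the pair is therefore uncertain, and their sum is given beside them. Hspb1 shared 52.3% of its words with Hsp25-ps1 and Hsp90aa1 shared 46.7% with Gm12346, but at most 2.6 and 16.7 estimated counts were assigned to these copies in any library. Clk1 and Clk4 shared 0.4% and 0.6% of their words with each other, so their values are nearly separate measurements. Of 13 annotated Clk1 transcripts, 7 were of the retained-intron class and 1 was protein-coding, and of 14 Clk4 transcripts 7 were retained-intron and 4 protein-coding. Cirbp had 4 retained-intron transcripts of 7. Because the deposited values add up every transcript of a gene, they cannot show which of these forms differed.

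The libraries held 27272270 to 28257496 estimated counts, and all 10 genes were among the 16637 tested. Levels are given as CPM, the counts divided by a library size that the TMM method adjusts and scaled to a common total. Differences are log2 fold changes from edgeR's quasi-likelihood fit over all 14 libraries, where q is its p-value after Benjamini-Hochberg adjustment across all 16637 genes. Calls required a fold of at least 5/4 in either direction, a p below 0.05 and a q below 0.1. Gsdmd, the targeted gene, had 41 to 63 estimated counts in WT and 22 to 42 in KO libraries (averaged over exposures, log2 fold change -0.52, edgeR q = 0.016), and gene sums do not show the deletion. The record of WT-O2 mouse 4 is inconsistent, with hyperoxia in its title and room air as its treatment. The title was followed. Values without this mouse are given beside the exposure calls of the members and the Hspa1a call in hyperoxia. For the summed HSP70 pair and some genes of the wider lists, leaving it out was chosen after seeing the data, and the value is given where it matters to a call.

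Clk1 was lower in hyperoxia than in room air, as called in WT and averaged over genotypes, and the same order held without a call in KO. Its levels were 68.6, 69.8, 67.4 and 78.2 CPM in WT-RA mice 1 to 4, and 43.4, 42.9, 54.7 and 39.1 CPM in WT-O2 mice 1 to 4. Every WT-O2 mouse was below every WT-RA mouse. The means were 71.0 ± 4.92 (SD, n = 4) and 45.0 ± 6.72 CPM (SD, n = 4), a fold of 0.634 (log2 fold change -0.66, SE 0.11, 95% interval -0.90 to -0.42, edgeR q = 0.038), and Clk1 was called. The value was -0.59 (q = 0.079) without WT-O2 mouse 4 and -0.64 (q = 0.157) without WT-O2 mouse 2, which ended the call. With WT-O2 mouse 4 taken as room air it was -0.46 (q = 0.38).

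In KO animals, Clk1 was at 75.5, 67.3 and 93.2 CPM in KO-RA and at 58.5, 60.2 and 48.4 CPM in KO-O2. Here too all hyperoxia mice were below all room air mice, and KO-RA mouse 3 was the highest of the 14. The difference was -0.50 (SE 0.13, 95% interval -0.78 to -0.22), but it was not called (edgeR q = 0.69). The interaction of genotype and exposure was 0.16 (95% interval -0.21 to 0.53, edgeR q = 1), so a difference between the genotypes' responses was not detected. Averaged over genotypes, Clk1 was 0.67-fold in hyperoxia (log2 fold change -0.58, SE 0.09, edgeR q = 0.0123), and without WT-O2 mouse 4 the difference was -0.545 (q = 0.027). In order of mean level the groups were KO-RA (78.7 CPM), WT-RA (71.0), KO-O2 (55.7) and WT-O2 (45.0). The neighbours KO-RA and WT-RA overlapped, as did KO-O2 and WT-O2, while the room air and hyperoxia groups did not.

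Clk4, the closest relative measured, was lower in hyperoxia in WT mice by a smaller fold. It was at 39.9, 35.3, 36.0 and 42.6 CPM in WT-RA and at 29.2, 26.8, 30.6 and 27.6 CPM in WT-O2, with no overlap. The fold was 0.743 (log2 fold change -0.43, SE 0.09, edgeR q = 0.08), and the gene was called. In KO it was at 41, 34.8 and 45.0 CPM in KO-RA and at 34.1, 37.1 and 28.7 CPM in KO-O2. These groups overlapped, because KO-O2 mouse 2 lay above KO-RA mouse 2, and the difference of -0.27 (SE 0.11, edgeR q = 0.997) was not called. Averaged over genotypes Clk4 was called at -0.35 (SE 0.07, edgeR q = 0.0693). The Clk4 calls rested on the full set of mice: leaving out any 1 of the 4 WT-O2 mice gave q between 0.128 and 0.261 in WT. Without WT-O2 mouse 4 the averaged difference was -0.34 and was no longer called (q = 0.105).

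In all, hyperoxia called 2 of the 10 genes in WT, both lower, where 0.643% of all genes tested were called. The room air and hyperoxia mice did not overlap for 3 of the 10 (Clk1, Clk4 and Cirbp), against 5.99% of all genes tested. In KO, edgeR called 0 of the 10, as did DESeq2, where edgeR called 0.012% of all genes. At an unadjusted edgeR p under 0.05 were 5 of the 10, against 809 of 16637 for all genes. The KO groups did not overlap for 5 of the 10 (Clk1, Cirbp, Rbm3, Hsph1 and Hsp90aa1), against 11.8% of all genes. For the interaction 0 of the 10 were called by edgeR or DESeq2, with 0 at an unadjusted p under 0.05, and 0% of all genes were called (673 of 16637 at an unadjusted p under 0.05). Averaged over genotypes 3 of the 10 were called (Clk1 and Clk4 lower, Cirbp higher), against 0.337% of all genes. The 10 genes were chosen with earlier results of these data known, so these shares are a description and not a test.

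**Figure D1:**
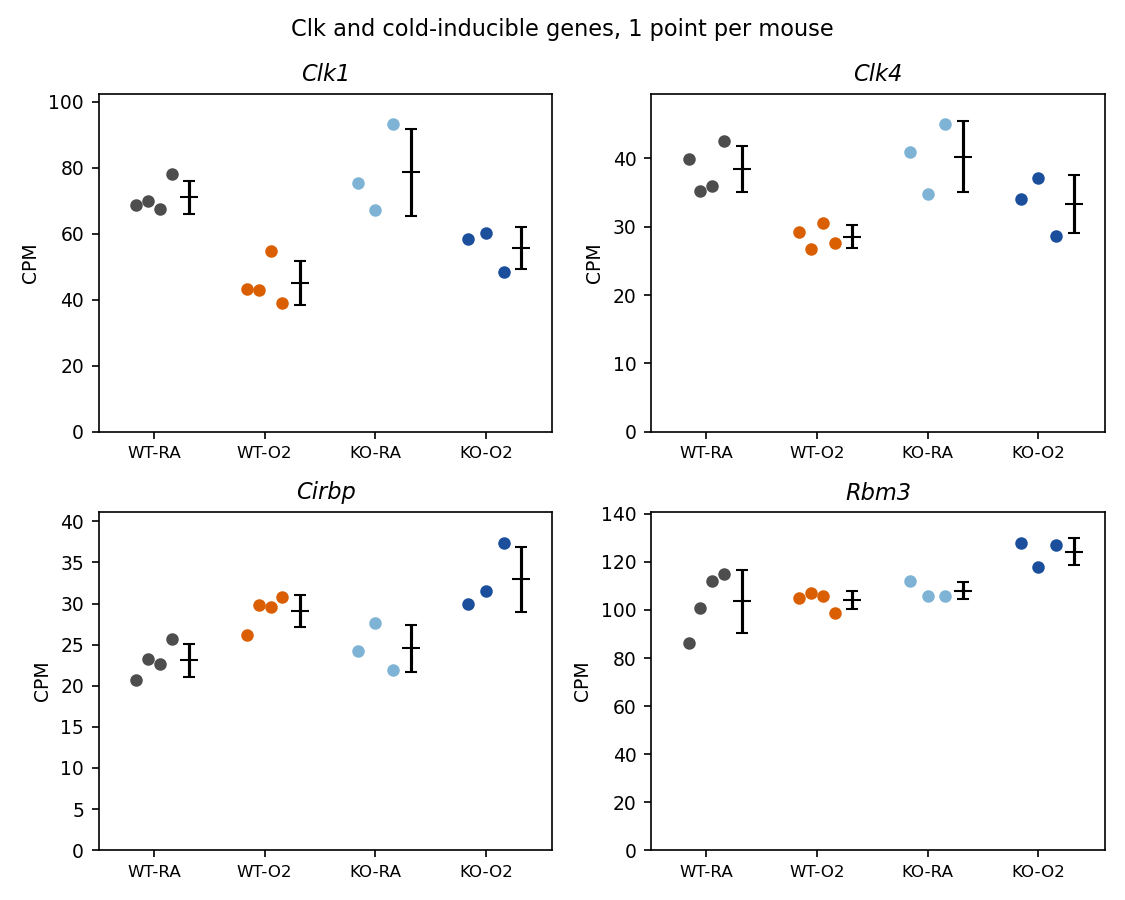
Levels in CPM (vertical axes, from 0) of Clk1, Clk4, Cirbp and Rbm3 in the 4 groups, with 1 point per mouse and, beside the points, the mean with its SD (n = 4 in WT groups and 3 in KO groups). The WT-O2 points of Clk1, 39.1 to 54.7, lie below the WT-RA points, 67.4 to 78.2, and the Cirbp points lie higher in hyperoxia in both genotypes.

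Cirbp was higher in hyperoxia averaged over genotypes, and its exposure groups did not overlap in either genotype. It was at 20.7, 23.2, 22.7 and 25.7 CPM in WT-RA and at 26.2, 29.8, 29.6 and 30.8 CPM in WT-O2. All WT-O2 mice were above all WT-RA mice, though WT-O2 mouse 1 exceeded WT-RA mouse 4 by little. The fold in WT was 1.26 (log2 fold change 0.34, SE 0.09, 95% interval 0.14 to 0.53), and it was not called by edgeR (q = 0.148) but was by DESeq2 (q = 0.0386). In KO, Cirbp was at 24.2, 27.6 and 21.9 CPM in KO-RA and at 29.9, 31.5 and 37.4 CPM in KO-O2, again without overlap. The fold in KO was 1.34 (log2 fold change 0.42, SE 0.11, 95% interval 0.19 to 0.65), with an edgeR q of 0.66. Averaged over genotypes Cirbp was called as higher at 0.38 (SE 0.07, edgeR q = 0.0501). That call was lost without WT-O2 mouse 2 (q = 0.12), KO-RA mouse 1 (q = 0.112) or 3 (q = 0.148), or KO-O2 mouse 3 (q = 0.152). Without WT-O2 mouse 4 it remained called, at 0.37 (q = 0.0872).

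Rbm3, the other cold-inducible gene, was not called between exposures. It was at 86.3, 101, 112 and 115 CPM in WT-RA, a range that held all the WT-O2 values of 105, 107, 106 and 98.9 CPM. The difference was 0.01 with a 95% interval of -0.15 to 0.17. In KO it was at 112, 106 and 106 CPM in KO-RA and at 128, 118 and 127 CPM in KO-O2, so that the KO-O2 mice were the 3 highest of the 14. The difference of 0.20 in KO (95% interval 0.01 to 0.39) had an edgeR q of 0.997, and the interaction was 0.19 (95% interval -0.05 to 0.44, edgeR q = 1). Between genotypes in hyperoxia, Rbm3 was 1.19-fold in KO-O2 (log2 fold change 0.25, SE 0.08, edgeR q = 0.087), which stayed under the fold threshold. Cirbp differed by 0.18 in the same comparison (95% interval -0.03 to 0.39, edgeR q = 0.368).

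The Clk genes were not called between genotypes. In hyperoxia the KO mice were at 1.24-fold for Clk1 (log2 fold change 0.31, SE 0.12, edgeR q = 0.175) and at 1.17-fold for Clk4 (0.22, SE 0.10, q = 0.253), and in both genes the groups overlapped. In room air the differences were 0.15 (95% interval -0.11 to 0.41) and 0.07 (-0.15 to 0.28). Averaged over exposures Clk1 was 1.17-fold in KO (edgeR q = 0.0826), again under the fold threshold.

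**Figure D2:**
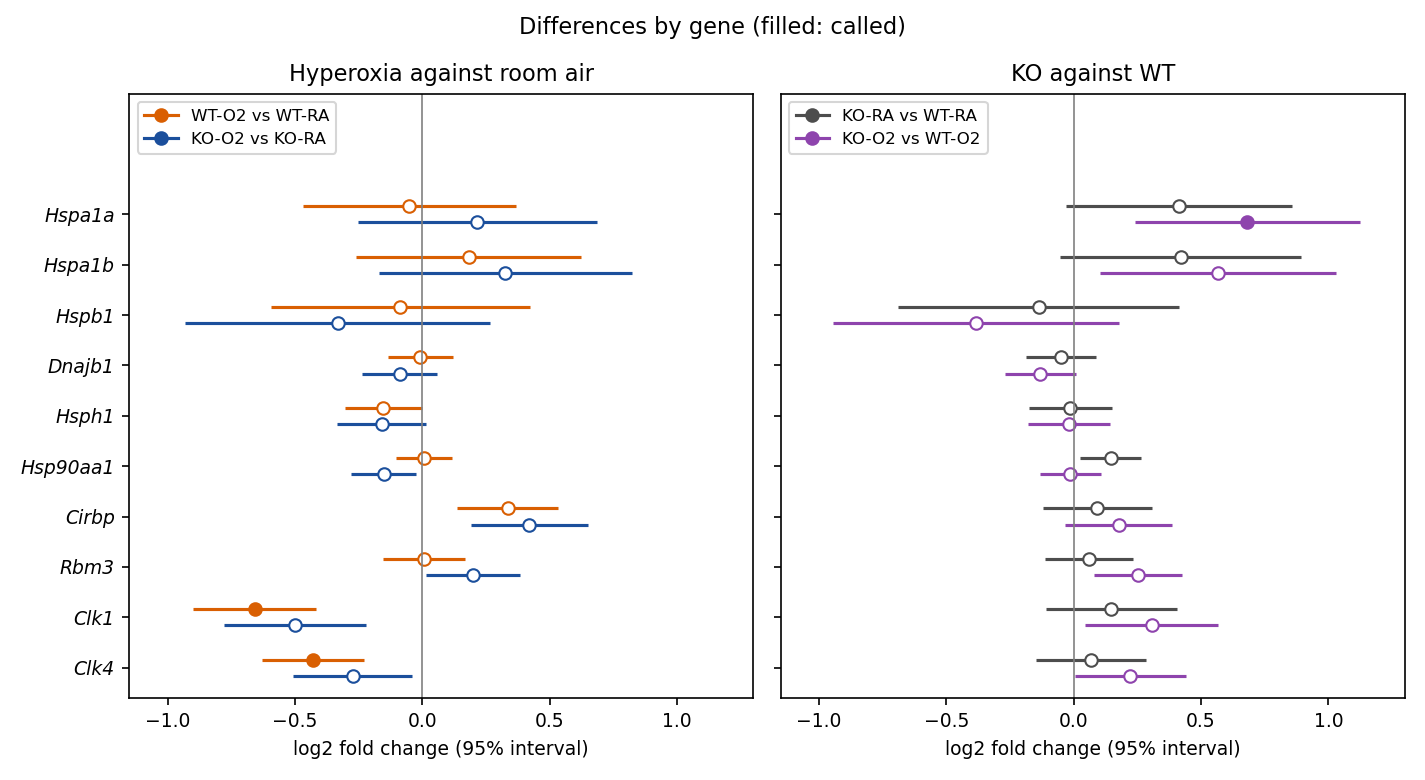
Log2 fold changes of the 10 genes with their 95% intervals, for hyperoxia against room air in each genotype and for KO against WT in each exposure. Filled points were called. The intervals of Clk1 lie below 0 and those of Cirbp above 0 in both genotypes, and Hspa1a in KO-O2 vs WT-O2 is the filled point in the panel of genotypes.

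Among the heat shock genes, the stress-inducible HSP70 genes Hspa1a and Hspa1b were higher in KO. Both encode almost the same chaperone, which binds unfolded stretches of other proteins. Hspa1a was at 7.86, 7.75, 5.27 and 4.2 CPM in WT-RA and at 6.16, 6.81, 5.66 and 5.57 CPM in WT-O2. It was at 9.58, 8.53 and 6.94 CPM in KO-RA and at 7.45, 9.76 and 11.9 CPM in KO-O2. The KO-O2 mice lay above all WT-O2 mice, whereas KO-RA mouse 3 lay below 2 WT-RA mice.

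In hyperoxia the Hspa1a fold was 1.6 (log2 fold change 0.68, SE 0.21, 95% interval 0.24 to 1.12, edgeR q = 0.0712), and the gene was called. In room air it was 0.41 (SE 0.21, edgeR q = 0.253). Averaged over exposures Hspa1a was called at 0.55 (SE 0.15, edgeR q = 0.0174). The call in hyperoxia was lost without WT-O2 mouse 1 (q = 0.103), 3 (q = 0.157) or 4 (q = 0.165), or without KO-O2 mouse 2 (q = 0.164) or 3 (q = 0.302). Between exposures Hspa1a differed by -0.05 in WT (95% interval -0.47 to 0.37) and by 0.22 in KO (-0.25 to 0.69), and neither was called.

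Hspa1b was at 4.66, 5.39, 3.82 and 4.84 CPM in WT-RA and at 4.84, 6.06, 4.99 and 5.33 CPM in WT-O2. It was at 8.62, 6.19 and 3.98 CPM in KO-RA and at 5.76, 8.66 and 9.15 CPM in KO-O2. In both exposures 1 KO mouse lay within the WT range. Averaged over exposures Hspa1b was called at 0.49 (SE 0.16, edgeR q = 0.0387), and the call was lost without KO-RA mouse 1 (q = 0.125) or KO-O2 mouse 3 (q = 0.104). Within hyperoxia it was 0.57 (edgeR q = 0.16) and within room air 0.42 (q = 0.275).

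Summing the pair removes the question of how reads were split. The sum was 12.5, 13.1, 9.08 and 9.04 CPM in WT-RA, 11.0, 12.9, 10.7 and 10.9 CPM in WT-O2, 18.2, 14.7 and 10.9 CPM in KO-RA, and 13.2, 18.4 and 21.1 CPM in KO-O2. The KO-O2 mice did not overlap with WT-O2, while KO-RA mouse 3 lay within WT-RA. The summed difference was called in hyperoxia (0.63, SE 0.19, edgeR q = 0.0661) and averaged over exposures (0.52, SE 0.13, q = 0.013), and not in room air (0.42, SE 0.19, q = 0.196). Without WT-O2 mouse 4 the summed difference in hyperoxia was 0.62 and was not called (q = 0.145), while that averaged over exposures was 0.52 and was called (q = 0.0251). The interaction of the sum was 0.21 (SE 0.27, edgeR q = 1), so the genotype difference was not shown to depend on exposure.

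**Figure D3:**
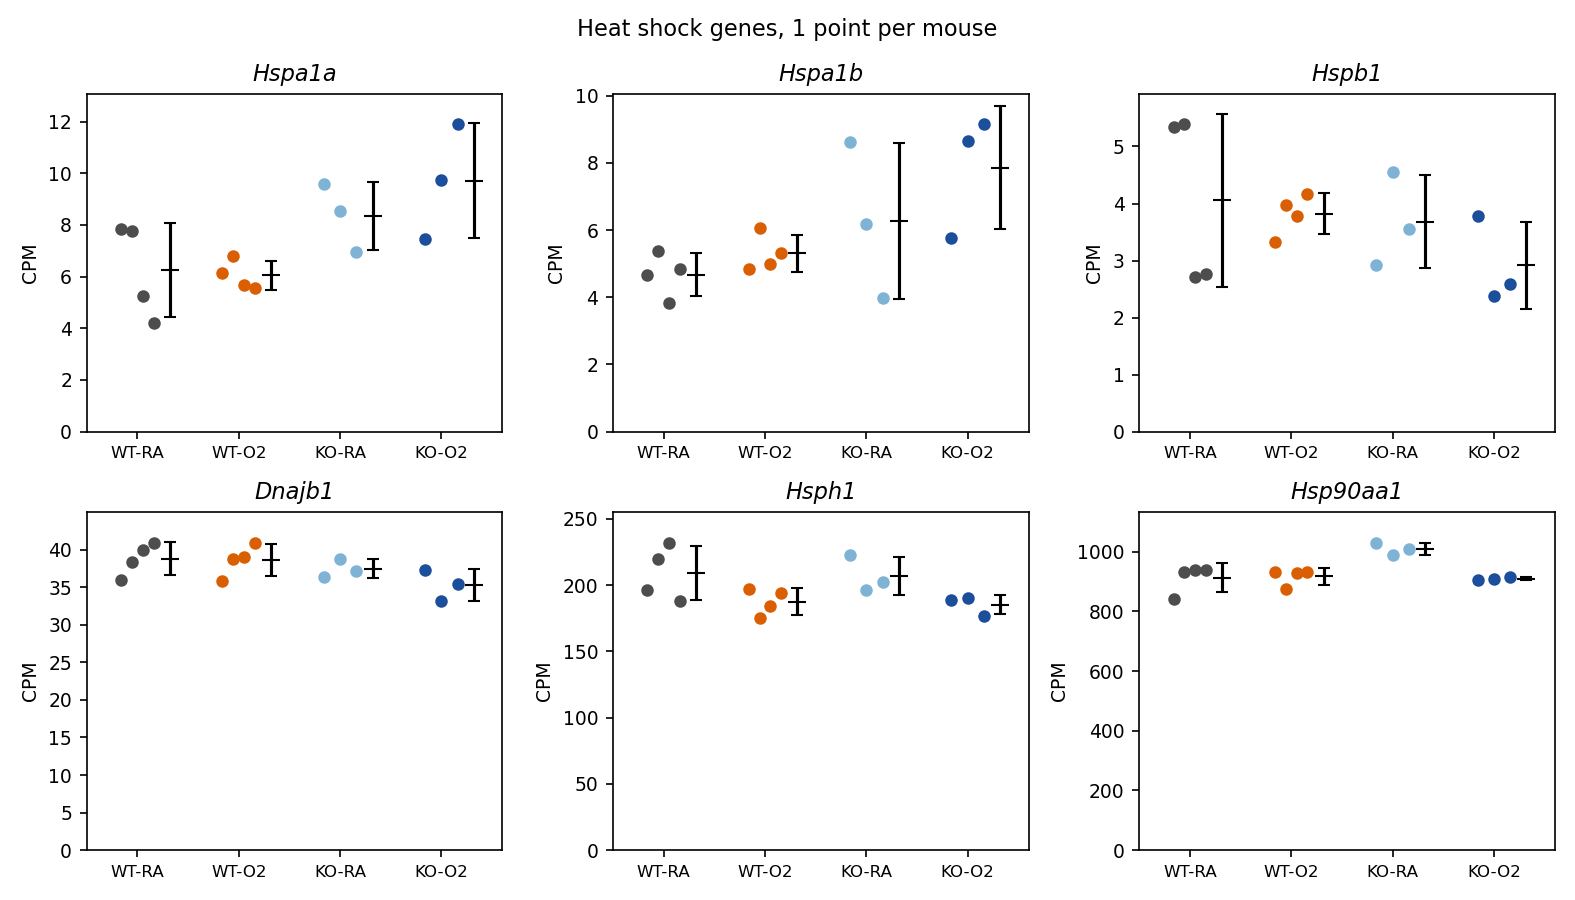
Levels in CPM (vertical axes, from 0) of the 6 heat shock genes in the 4 groups, with 1 point per mouse and the mean with its SD beside the points (n = 4 in WT groups and 3 in KO groups). For Hspa1a the KO-O2 points, 7.45 to 11.9, lie above the WT-O2 points, 5.57 to 6.81, and the lower panels show that Dnajb1, Hsph1 and Hsp90aa1 vary little between groups.

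The other 4 heat shock genes were not called in any comparison. Hspb1, which encodes the small chaperone HSP27, ranged from 2.38 to 5.39 CPM over the 14 mice. In WT-RA, 2 mice were at 5.35 and 5.39 CPM and the other two at 2.72 and 2.76 CPM, nearly the spread of all groups together. Its differences ran from -0.39 (KO-O2 vs WT-O2, 95% interval -0.95 to 0.18) to -0.09 (WT-O2 vs WT-RA, 95% interval -0.59 to 0.42). None was called.

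Dnajb1, the HSP40 partner that delivers clients to HSP70, was measured more tightly, at 33.1 to 40.9 CPM in all mice. Its difference between exposures was -0.01 in WT (95% interval -0.14 to 0.12) and -0.09 in KO (-0.24 to 0.06). Between genotypes it was -0.05 in room air and -0.13 in hyperoxia (edgeR q = 0.718 and 0.299). Dnajb1 was thus not called where Hspa1a and Hspa1b were.

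Hsph1, an HSP110 that recycles HSP70, had lower means in hyperoxia in both genotypes but was not called. It was at 196, 220, 232 and 188 CPM in WT-RA, 197, 175, 184 and 194 CPM in WT-O2, 223, 196 and 202 CPM in KO-RA, and 189, 190 and 177 CPM in KO-O2. The WT groups overlapped and the KO groups did not. The difference was -0.15 in WT (edgeR q = 0.403), -0.16 in KO (q = 0.997) and -0.16 averaged over genotypes (95% interval -0.27 to -0.04, edgeR q = 0.262). A fold of 0.897 is within the fold threshold.

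Hsp90aa1 encodes the stress-inducible HSP90 and stood highest in KO-RA. It was at 841, 931, 940 and 940 CPM in WT-RA, 933, 875, 930 and 933 CPM in WT-O2, 1030, 990 and 1010 CPM in KO-RA, and 905, 908 and 916 CPM in KO-O2. The KO-RA mice were above the other 11 mice. The difference was 0.15 for KO-RA vs WT-RA (95% interval 0.03 to 0.27, edgeR q = 0.122) and -0.15 for KO-O2 vs KO-RA (-0.28 to -0.02, q = 0.997). Neither reached the fold threshold, and the interaction of -0.16 was not called (95% interval -0.33 to 0.01, edgeR q = 1).

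For the comparison of genotypes in room air, edgeR and DESeq2 called 0 of the 10 genes, where edgeR called 10.4% of all genes tested. At an unadjusted edgeR p under 0.05 was 1 of the 10, against 3907 of 16637 for all genes. Groups did not overlap for 1 of the 10, against 19.6% of all genes. In hyperoxia 1 of the 10 was called (Hspa1a), against 6.86% of all genes, and the groups did not overlap for 2 of the 10 (Hspa1a and Rbm3), against 19% of all genes. Averaged over exposures 2 of the 10 were called, against 12% of all genes. Between genotypes the members' counts thus lay near the background of a contrast in which many genes were called. Between exposures averaged over genotypes, Clk1, Clk4 and Cirbp were 3 of the 56 genes called of 16637. The 10 genes were chosen with earlier results of these data known, so these shares do not test whether the members exceed the background. Clk1 and Clk4 also moved together (Pearson r 0.953 over the 14 libraries), so their calls are not independent.

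The wider pathways were described by lists of related genes. Over all 16637 genes, 2027 were at an unadjusted edgeR p under 0.05 in WT-O2 vs WT-RA and 809 in KO-O2 vs KO-RA. Between exposures averaged over genotypes 1960 were. Between genotypes the counts were 3907 in room air, 3117 in hyperoxia and 5008 averaged over exposures. In the heat shock network of 29 other chaperones, cochaperones and heat shock factors, 1 gene was lower and 0 were higher in WT-O2 vs WT-RA. That gene was Cryab, a small heat shock protein abundant in oligodendrocytes, at -0.73 (SE 0.17, edgeR q = 0.0894), from 71.1 ± 9.18 to 42.9 ± 10.7 CPM (SD, n = 4 each). In the same comparison all 7 oligodendrocyte markers had negative differences (median -0.63), of which edgeR called 0, with 1 at an unadjusted p under 0.05. Without WT-O2 mouse 4 all 7 were at an unadjusted p under 0.05 and 0 were called (median -0.86), and Cryab was called at -0.86 (q = 0.0789). The markers' part in the lower Cryab was not tested. In KO animals 0 of the 29 were called by edgeR, with 5 at an unadjusted p under 0.05. The median of the list was -0.02 in WT and -0.07 in KO, against -0.01 and 0.00 for all genes tested. The constitutive HSP70 gene Hspa8 and heat shock factor Hsf1, named for their roles and outside the rule for named genes, differed by 0.04 and -0.05 in WT (edgeR q = 0.802 and 0.823).

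Between genotypes averaged over exposures, 2 of 29 genes of this list were called as lower in KO and 0 as higher, a smaller share than the 12% of all genes called in that comparison (1321 lower and 683 higher). Dnajb2, a neuronal HSP40, was lower by a log2 fold change of -0.52 (SE 0.06, edgeR q = 2.69e-05), with 45.0 to 61.0 CPM in the 8 WT mice and 34.4 to 40.2 CPM in the 6 KO mice. Cryab was lower by -0.74 (SE 0.13, edgeR q = 0.0012). The list median was -0.02, and it was -0.01 for all genes.

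The kinase and SR protein list held 25 genes besides Clk1 and Clk4, including the SR proteins that these kinases phosphorylate. Between exposures 0 of the 25 were called by edgeR in WT or in KO, with 5 at an unadjusted p under 0.05 in each. Averaged over genotypes it called 0 of 25, with 6 at p under 0.05, and the list median was 0.03, against -0.46 for the 2 Clk genes. The sister kinase genes Clk2 and Clk3, named here as the remaining members of the Clk family, differed by -0.09 and -0.18 in WT (edgeR q = 0.7 and 0.244) and by -0.08 and -0.07 in KO. Between genotypes in room air 1 of the 25 was called, with 17 of 25 positive and a median of 0.04. That gene was Srpk3, a kinase of SR proteins best known from muscle, which was lower in KO-RA (-0.72, SE 0.24, edgeR q = 0.075) at a level of only 1.67 to 4.66 CPM over all mice. In hyperoxia edgeR called 0 of 25, with 7 at an unadjusted p under 0.05, against 3117 of 16637 for all genes. Of the 25, 22 were positive and the median was 0.11. Averaged over exposures edgeR called 0 of 25, with 13 at an unadjusted p under 0.05, against 5008 of 16637 for all genes. There 19 were positive and the median was 0.11, against -0.01 for all genes.

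Transcripts that, like those of the Clk genes, are known to keep introns or stay in the nucleus formed a list of 15 measured genes, and Malat1, Neat1 and Miat were not analysed here. Between exposures edgeR called 0 of 15 in either genotype, with 1 at an unadjusted p under 0.05 in each, and the medians were 0.02 in WT and 0.06 in KO. Rsrp1, an SR-related gene, was at 142 to 152 CPM in WT-RA and 115 to 128 CPM in WT-O2, with no overlap, and its difference of -0.29 (SE 0.06, edgeR q = 0.0728) stayed under the fold threshold. In KO it differed by -0.003 between exposures (q = 0.998), and the interaction was 0.29 (q = 1). In KO-O2 vs WT-O2, 2 were higher: Ccnl2, a cyclin of splicing speckles (0.37, SE 0.08, edgeR q = 0.0168), and Rsrp1 (0.33, SE 0.07, q = 0.00915). The list median there was 0.14, with 14 of 15 positive, against -0.01 and 7969 of 16637 for all genes. In KO-RA vs WT-RA edgeR called 0 of 15, with 4 at an unadjusted p under 0.05, 12 of 15 positive and a median of 0.12. Values spread widely in KO-O2. Ccnl2 was at 60.6, 72.8 and 81.2 CPM in its 3 mice (lowest, median and highest), and Pnisr and Snhg11, named after their values were seen, were at 146, 156 and 211 CPM and at 701, 703 and 1260 CPM.

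Besides Cirbp and Rbm3, 8 genes with cold shock domains or a close relation to them were measured. Between exposures edgeR called 0 of the 8 in either genotype, with 1 at p under 0.05 in WT and 0 in KO. Averaged over exposures Rbmx, an RNA-binding protein related to Cirbp and Rbm3, was higher in KO (0.34, SE 0.05, edgeR q = 0.000154), and Carhsp1, which has a cold shock domain, was lower (-0.37, SE 0.11, q = 0.0375). Without WT-O2 mouse 4 Carhsp1 was at -0.31 (q = 0.0786), just under the fold threshold.

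**Figure D4:**
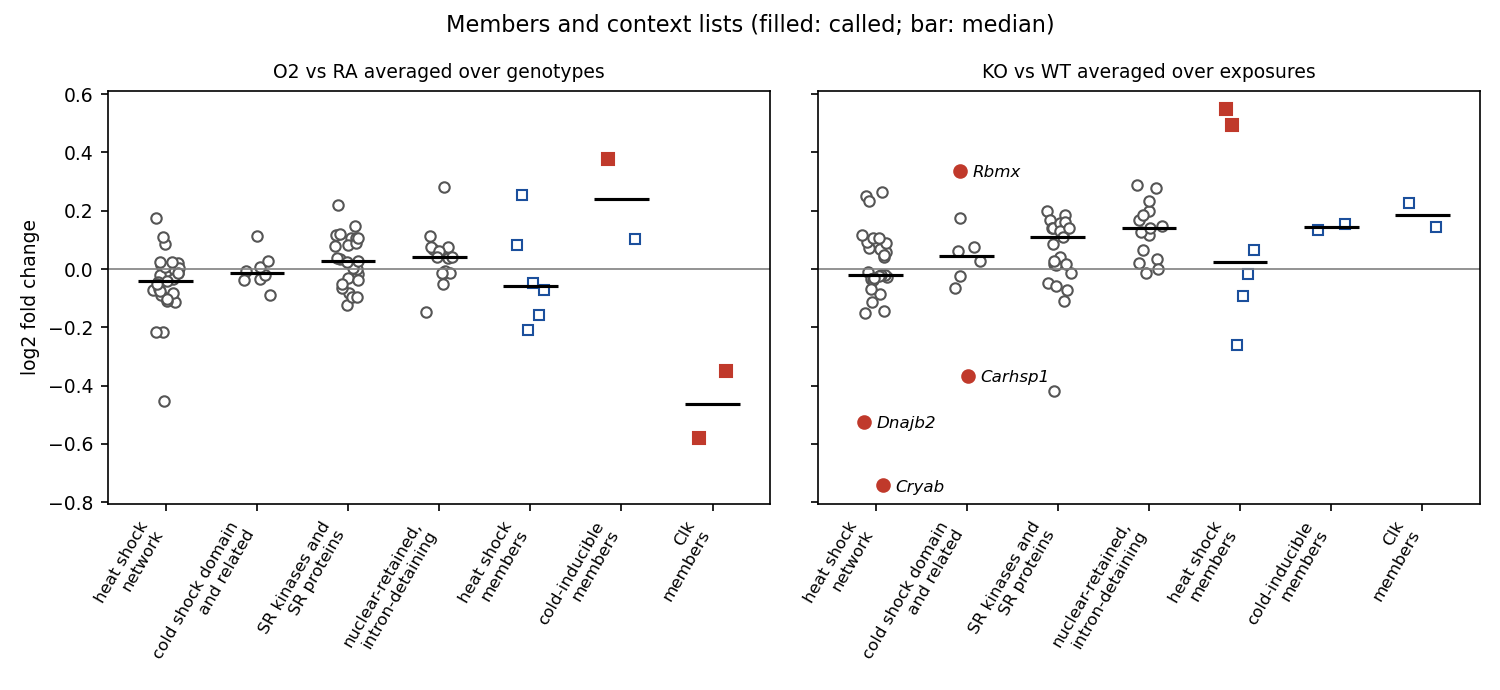
Log2 fold changes of each gene of the 4 context lists (circles) and of the 10 members (squares), for hyperoxia against room air averaged over genotypes and KO against WT averaged over exposures. Filled symbols were called and bars are medians. Between exposures the called symbols are Cirbp, above 0, and Clk1 and Clk4, below 0, while the context lists lie around 0.

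Other measured features moved with the same groups. Immediate early genes, which follow neuronal activity, were lower in hyperoxia: 5 of 12 were called as lower in WT and 1 of 12 in KO. Of all genes, 0.643% and 0.012% were called there. The summed level of the 12 was 427 to 531 CPM in WT-RA and 254 to 309 CPM in WT-O2, and 297 to 419 CPM in KO-RA and 258 to 273 CPM in KO-O2. Of the 3 with the highest level, Egr1 fell by 0.85 on the log2 scale in WT (edgeR q = 0.0248) and Arc fell by 1.175 (q = 0.00593), while Nr4a1 differed by -0.58 (q = 0.128) and was not called. The count called as lower in WT was also 5 of 12 without WT-O2 mouse 4. These genes differed with genotype too: 4 of 12 were called as lower in KO in room air, 2 in hyperoxia and 5 averaged over exposures. Of all genes, 10.4%, 6.86% and 12% were called in these comparisons. The part of these genes in the Clk and Cirbp differences was not tested.

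With genotype, markers of brain regions and cell types moved more widely. All 11 striatal neuron markers were called as lower in KO in both exposures (summed level 425 to 975 CPM in WT and 163 to 273 CPM in KO). All 7 oligodendrocyte markers were lower in KO-RA and 5 of 7 in KO-O2 (4950 to 19800 CPM in WT and 3370 to 5940 CPM in KO). Without WT-O2 mouse 4, edgeR called 0 of the 7 in KO-O2 vs WT-O2, with 7 at an unadjusted p under 0.05. Of 12 hippocampal neuron markers, 9 were higher in KO-RA and 4 in KO-O2 (730 to 1110 CPM in WT and 1370 to 1710 CPM in KO), and of 10 thalamic markers 5 and 4 were lower. No gene of the 10 marker lists was at 0 in every library. Their part in the higher Hspa1a and Hspa1b or the lower Cryab and Dnajb2 of KO was not tested. In bulk tissue, fewer cells of a type and less RNA per cell cannot be told apart. WT mice were also numbered GSD398 to GSD408 and KO mice GSD489 to GSD496, so genotype and the range of mouse numbers cannot be told apart. In WT the room air mice were GSD398 to GSD401 and the hyperoxia mice GSD404 to GSD408. Exposure and mouse number thus cannot be told apart in WT either. In KO the numbers were mixed, with GSD489, GSD490 and GSD496 in room air and GSD491, GSD494 and GSD495 in hyperoxia.

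Endothelial, mural, microglial and astrocyte markers were not called between exposures in either genotype, with at most 2 of 8 or 2 of 7 at an unadjusted p under 0.05 in edgeR. Oligodendrocyte markers were not called either, with 1 of 7 in WT and 0 of 7 in KO at an unadjusted p under 0.05, but all 7 differences were negative in both genotypes (median -0.63 in WT and -0.11 in KO). Their summed level was 7910 to 19800 CPM in WT-RA, 4950 to 13200 CPM in WT-O2, 3400 to 5480 CPM in KO-RA and 3370 to 5940 CPM in KO-O2. Of 12 hippocampal neuron markers 0 were called in either genotype (medians 0.25 in WT and 0.03 in KO). In WT 9 of the 12 were positive and 3 were at an unadjusted edgeR p under 0.05. Striatal markers were not called (medians -0.112 and -0.204). Of 10 thalamic markers 1 was called as lower in WT and 0 in KO. The part of regional markers in the Clk and Cirbp differences was not tested. Choroid plexus markers varied between single libraries, from 37.8 CPM in 1 KO-RA library to 3430 CPM in 1 KO-O2 library, and 0 of 7 were called in any comparison of 2 groups. Mitochondrial genes took 6.68% to 10.42% of the counts, with overlap between all groups.

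How the genes moved together from mouse to mouse was described by correlations of log2 CPM after subtracting group means, over 14 libraries of 1 tissue and like depth. Clk1 and Clk4 had a Pearson r of 0.829 within groups and 0.953 without subtraction. Hspa1a and Hspa1b, whose transcripts share most of their words, had 0.619 and 0.775. Cirbp and Rbm3 had 0.37 and 0.588, and Hspa1a and Dnajb1 had -0.59 within groups. The 6 heat shock genes therefore did not form 1 block. Some pairs of a heat shock and a cold-inducible gene had values of like size within groups. They were 0.692 for Hsp90aa1 and Rbm3, -0.639 for Hspb1 and Rbm3, 0.543 for Dnajb1 and Rbm3, and 0.541 for Dnajb1 and Cirbp.

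**Figure D5:**
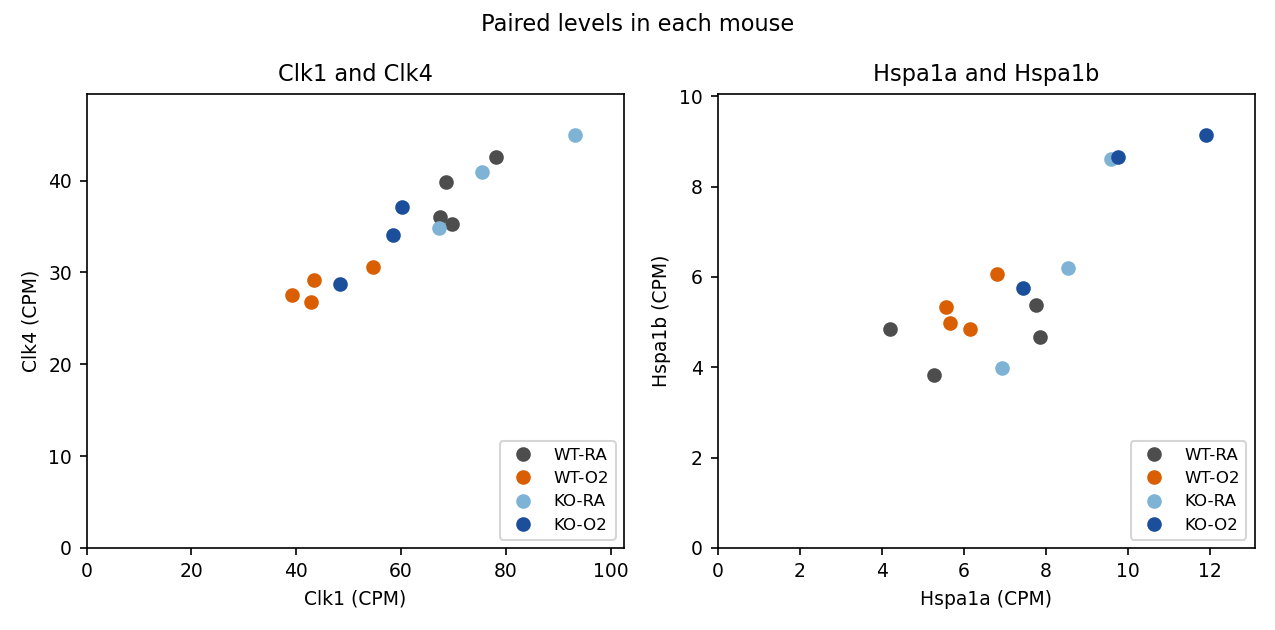
Levels in CPM of Clk4 against Clk1 and of Hspa1b against Hspa1a, with 1 point per mouse, coloured by group. The Clk points follow 1 line from the WT-O2 mice at the low end (Clk1 39.1 to 54.7 CPM) to a KO-RA mouse at 93.2 CPM, and the highest points of the HSP70 pair are KO mice.

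The genes most like each group were taken by Pearson r over the 14 libraries with the mean centred log2 CPM of the group. For the Clk genes they were Rab28 (0.928), 5730507C01Rik (0.903), Zfp418 (0.889), Rpia (0.882) and Cebpg (0.88). For Cirbp and Rbm3 they were Cyb5r3 (0.929), Lcmt2 (0.917), Chsy1 (0.864), Prpf31 (0.863) and Unc5a (0.856). For the heat shock genes they were Dusp5 (0.878), Adcy9 (0.826), Nkx6-1 (0.825), Vps72 (0.819) and Gm5069 (0.817). Each is among the highest values over all other genes tested, and they are given as a description. Some were at low mean levels: Nkx6-1 at 0.404 CPM, 5730507C01Rik at 1.19, Gm5069 at 2.36 and Zfp418 at 2.62 CPM. Because the heat shock genes did not form 1 block, likeness to their mean does not stand for likeness to each of them.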

How the data were processed

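The hippocampal libraries came from 14 mice. The authors deposited 1 table of estimated counts per gene. Their methods name Kallisto for quantification and tximport for the sum over transcripts. The submitters' processing notes name kallisto, DESeq2 and build GRCm39, and tool versions are not given in the sources used here. At most 43.2% of a library's values are not whole numbers.

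Samples were grouped by the titles of their records, and mice are numbered within a group by order of record. Counts were rounded and passed through filterByExpr. The fit used edgeR 4.0.16 (R 4.3.3) with TMM factors, all 14 libraries and 4 group means without covariates. 7 comparisons were tested (2 of exposure, 2 of genotype, their interaction and 2 averages) by the quasi-likelihood F-test, two-sided. Log2 CPM used a prior count of 2. Labels do not say that mice were from separate litters, so p-values measure the spread between these mice. The 10 genes and all lists were chosen with earlier results of these data known. Named genes were the members, the called genes of each context list (at most 4 per direction by q), at most 3 markers of highest level per list and the 5 genes most like each member group. Shared 31-base words and transcripts came from GENCODE release M21, and upstream windows from RefSeq (GRCm38.p6), a build other than that of the counts. No coordinates were joined to the counts.

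The calls were tested on simulated data of 16468 genes: of 100 genes altered by 1.3-fold, 31 were called in WT and 25 in KO. At 1.6-fold 69 and 55 of 100 were called. In the same data, 19 unaltered genes were called in WT, 5 in KO and 10 averaged over genotypes, so some calls are false. The simulation altered the same genes in both genotypes, whereas the measured KO-O2 vs KO-RA comparison called only 2 genes. With more genes passing, a given p gets a lower q, so the simulated rates for KO may exceed those of the measured comparison. Gsdmd had 22 to 63 counts and Hspb1 few counts per library, so single values carry counting error. Alternatives were DESeq2 1.42.0, its size factors, library size alone, no filter or at least 10 counts in every library, only the 2 groups compared, thresholds of 1.5 for fold or 0.05 for q, room air for mouse GSD408, the HSP70 pair summed, each mouse left out and, added after seeing the data, WT-O2 mouse 4 left out for the summed pair and genes of the lists.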

Additional observations from a re-analysis of the deposited data

Results flagged for a closer look

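Among the 20 sets of 4 mice examined (10 genes in WT-RA and in WT-O2), 2 held a mouse whose gap to the nearest mouse, as a share of the whole range, passed Dixon's 95% critical value of 0.829, and chance alone passes about 1 in 20. Both were low values of Hsp90aa1. In WT-RA, mouse 1 (GSD398) was at 841 CPM and the others at 931 to 940 CPM, a ratio of 0.911. In WT-O2, mouse 2 (GSD405) was at 875 CPM and the others at 930 to 933 CPM, a ratio of 0.933. Both ratios are large in part because the other 3 mice lay close together.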

How the results depend on the processing

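Over 1636 gene-level alternatives to the log2 fold changes, 1537 kept direction and side of the threshold, 44 lost a call and 8 gained one. The sign changed in 47, all for differences that were not called. Most of the 1636 concerned such differences, which have no call to lose. In WT-O2 vs WT-RA, 2 alternatives lost the Clk1 call and 22 kept it, against 11 and 13 for Clk4. For Hspa1a in KO-O2 vs WT-O2, 7 lost it and 16 kept it. Averaged over genotypes the numbers lost and kept were 2 and 21 for Clk1, 11 and 12 for Clk4, and 7 and 16 for Cirbp. Averaged over exposures they were 1 and 21 for Hspa1a, and 3 and 19 for Hspa1b. The numbers of the 10 genes called moved as follows. In WT-O2 vs WT-RA (2 called), DESeq2 called 3. Fitting only the 2 groups, a fold of 1.5 or a q of 0.05 left 1. Taking mouse GSD408 as room air left 0, and leaving out single mice gave 0 to 2. Calls over all genes moved as well, from 107 to 310 with DESeq2, 20 with only the 2 groups and 46 at a fold of 1.5. They were 22 at a q of 0.05, 6 with GSD408 as room air and 13 to 272 without single mice. In KO-O2 vs WT-O2 (1 called), DESeq2 or only the 2 groups gave 2. A q of 0.05 or GSD408 as room air gave 0, and leaving out mice gave 0 to 2. Over all genes 1142 were called there, with 1317 by DESeq2 and 1386 with only the 2 groups. The number was 791 at a q of 0.05, 766 with GSD408 as room air and 675 to 1335 without single mice. Averaged over genotypes (3 called), a fold of 1.5 or GSD408 as room air left 0, a q of 0.05 left 1, and leaving out mice gave 1 to 3. Calls over all genes went from 56 to 27 at a fold of 1.5 and to 1 with GSD408 as room air. They were 21 at a q of 0.05 and 16 to 109 without single mice. For KO vs WT averaged over exposures (2 called), a fold of 1.5 left 0, since the folds were 1.46 for Hspa1a and 1.41 for Hspa1b. Summing the pair gave 1, since the pair then counts as 1 gene and its sum was called. Leaving out mice gave 1 to 2. Over all genes 2004 were called there, with 1011 at a fold of 1.5, 2003 with the pair summed and 1810 to 2118 without single mice. For KO-RA vs WT-RA (0 called), leaving out mice gave 0 to 1, while calls over all genes, 1738 with all mice, ran from 1076 to 1929. The causes of the moves on leaving out mice were not tested.

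Signs turned for small differences. With GSD408 as room air, WT-O2 vs WT-RA became 0.0193 for Hspa1a and -0.00743 for Hsp90aa1, KO-RA vs WT-RA became 0.00726 for Hsph1 and -0.00205 for Cirbp, the interaction of Clk1 became -0.0392, and KO vs WT averaged over exposures became 0.0026 for Hsph1. With no low-count filter Hsph1 in KO-RA vs WT-RA was 0.00305. Leaving out single mice, the ranges that crossed 0 were, in WT-O2 vs WT-RA, -0.203 to 0.0793 for Hspa1a, -0.237 to 0.0828 for Hspb1, -0.0378 to 0.0279 for Dnajb1, -0.0262 to 0.0296 for Hsp90aa1 and -0.0674 to 0.0598 for Rbm3. In KO-RA vs WT-RA they were -0.318 to 0.0356 for Hspb1, -0.0688 to 0.0474 for Hsph1, -0.00967 to 0.118 for Rbm3 and -0.0083 to 0.163 for Clk4. In KO-O2 vs WT-O2 they were -0.0503 to 0.0126 for Hsph1 and -0.0351 to 0.00257 for Hsp90aa1. For the interaction they were -0.0973 to 0.443 for Hspa1b, -0.0583 to 0.0501 for Hsph1 and -0.0165 to 0.177 for Cirbp. Averaged over genotypes Hspa1a ran from -0.00429 to 0.163, and KO vs WT averaged over exposures ran from -0.0438 to 0.0183 for Hsph1.

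With 3 or 4 mice per group, differences near 1.3-fold were often missed on simulated data, so a gene not called cannot be read as unchanged.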
